A study of Rattus norvegicus with 6 samples.

Results

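Forkhead (Fox) transcription factors share a winged-helix DNA-binding domain and are sorted by letter into subfamilies. The 40 members described here are all protein-coding rows of the count files whose gene name is Fox followed by a letter from a to s and a number, of 30945 rows in all. Of these, 18 had enough counts to be tested, 11 had a few counts, and 11 had no count in any library. The cells were primary rat vascular smooth muscle cells, which contract and give vessels their tone. Negative control cells gave 3 libraries and cells given an siRNA named siRNA_ANK gave 3, numbered 1 to 3 in each group by the labels. The series title describes these cells as ANK-deficient. The sources used here do not give the strain, sex and age of the rats, the siRNA sequence, its dose or the time after transfection. Whether the replicates were separate animals or cultures is not stated by the labels, so each p-value reflects the spread among these libraries alone, and that spread may be technical.

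As background, FOXO factors act downstream of insulin and IGF receptors: AKT phosphorylates them, which moves them out of the nucleus, so their mRNA level is only part of their control. FOXC and FOXF factors pattern the mesenchyme that forms vessel walls, and FOXC genes are needed for the development of arteries. FOXP and FOXK factors are broadly expressed and are known mainly as repressors. FOXM1 drives genes of mitosis.

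Library totals ranged from 15641259 to 17441548 counts. Ankh, the gene for the ANK pyrophosphate transporter, measured 338, 351 and 367 CPM (counts normalized to library depth with TMM factors) in control libraries and 84.9, 76.7 and 120 CPM in those of siRNA_ANK (edgeR adjusted p = 0.000180). On the first principal component of all genes, the libraries closest to the opposite group were negative control replicate 2 and siRNA_ANK replicate 3. Of 8 smooth muscle markers, 7 were higher in siRNA_ANK, and their summed level was 2595 to 3608 CPM in control libraries and 5155 to 6173 CPM in siRNA_ANK. Of 8 fibroblast markers, 6 were higher and 1 lower (summed level 176 to 193 and 234 to 248 CPM). The 9 endothelial markers summed to 5.81 to 7.54 and 18.1 to 22.0 CPM. Most of that was Erg, the only one of the 3 tested that passed, while Cdh5, Kdr, Tie1 and Emcn had no counts. The 9 leukocyte markers summed to at most 1.20 CPM in any library, and Ptprc, Adgre1, Itgam, Cd3e and Cd3g had no counts. The 6 epithelial markers matched summed to 7.85 to 9.95 CPM, with Cdh1 and Cldn4 at 0. The neural and glial list summed to 11.6 to 18.9 CPM, with Elavl3 and Snap25 at 0. The part of these marker shifts in the forkhead results below was not tested. In these bulk libraries, fewer cells of a type and less RNA per cell cannot be told apart.

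Of the 18 forkhead genes tested, 10 differed between the groups. Foxc1, Foxo1, Foxs1, Foxn3, Foxp1, Foxp2 and Foxn2 were higher in siRNA_ANK, and Foxk2, Foxq1 and Foxl1 were lower. The changes were moderate: log2 fold changes ran from -0.73 for Foxl1 to 0.69 for Foxc1, so that no member reached a 2-fold change. Calls are at an adjusted p under 0.05 in edgeR's quasi-likelihood test, with Benjamini-Hochberg adjustment over all 13016 genes tested. By this rule 40.1% of all genes tested were called, 19.9% higher and 20.2% lower, beside 55.6% of the forkhead genes tested, 38.9% higher and 16.7% lower. The median log2 fold change was 0.16 over the 18 members and 0.01 over all genes tested, and its median size was 0.26 and 0.23. For 14 of the 18 members every siRNA_ANK library lay on 1 side of every control, which held for 51.1% of all genes tested.

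**Figure D1:**
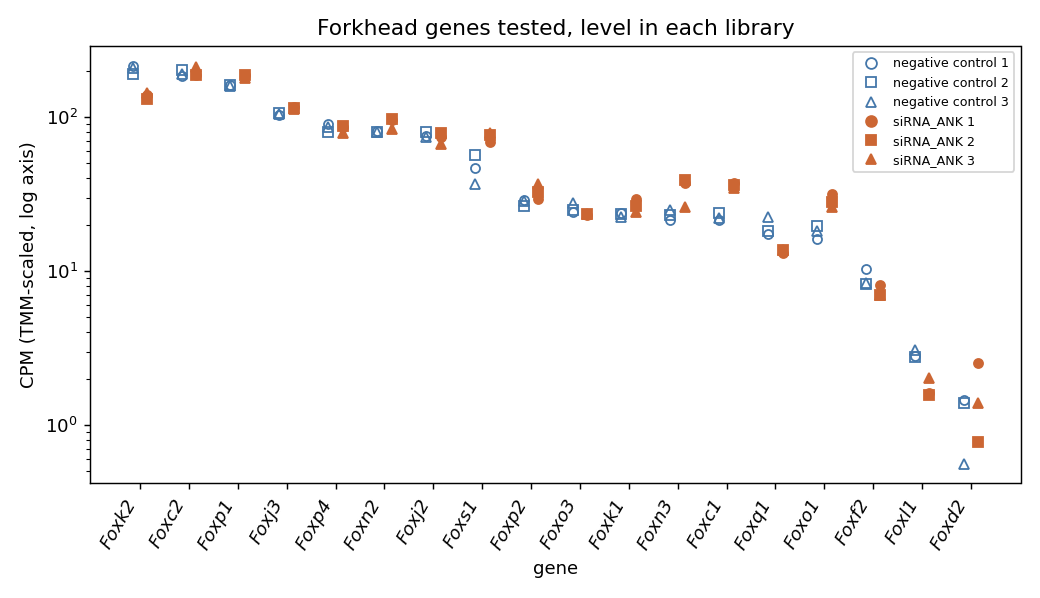
Level of each tested forkhead gene in each of the 6 libraries (CPM scaled with TMM factors, log axis), negative control open and siRNA_ANK filled, with 1 marker shape per replicate number. The groups stand apart for Foxc1, Foxo1 and Foxk2, while Foxc2 and Foxp4 overlap, and siRNA_ANK replicate 3 lies near the controls for Foxn3.

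**Figure D2:**
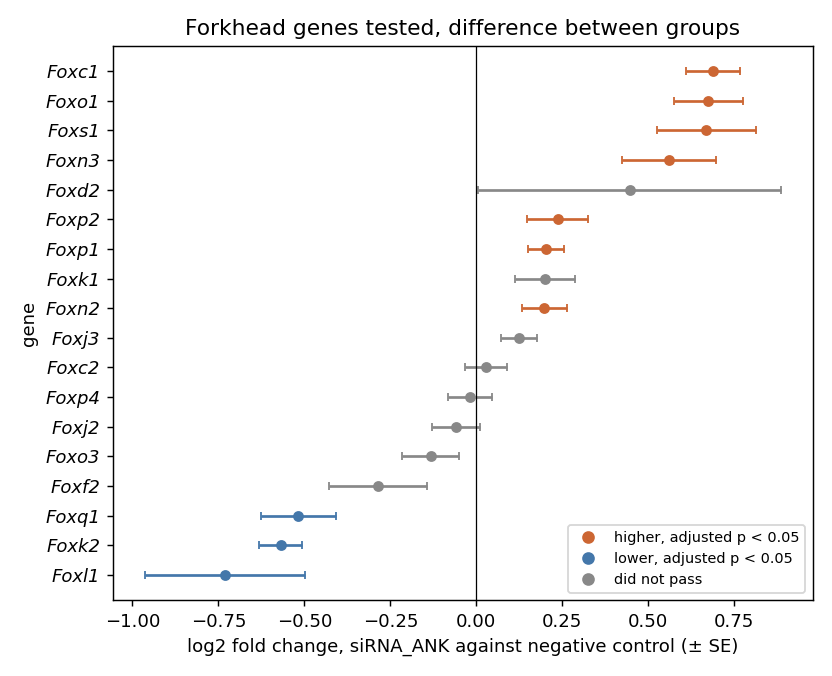
Log2 fold change of siRNA_ANK against negative control with its SE for the 18 forkhead genes tested, orange where higher and blue where lower at an adjusted p under 0.05, grey where the test was not passed. Values run from -0.73 (Foxl1) to 0.69 (Foxc1), with 7 genes higher and 3 lower.

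Among the factors of vessel and mesenchyme development, Foxc1 rose. Foxc1 (ENSRNOG00000070919, chromosome 17, 32633142 to 32634803 on the minus strand of mRatBN7.2) measured 21.3, 23.9 and 22.1 CPM in control cells and 37.3, 36.4 and 34.7 CPM in siRNA_ANK cells. All siRNA_ANK values lay above all control values, the groups being 1.61-fold apart (log2 fold change 0.69 ± 0.08, SE; edgeR adjusted p = 8.62e-06). Its closest relative Foxc2 did not pass the test. Foxc2 (ENSRNOG00000047446, chromosome 19, 49185662 to 49188737, plus strand) measured 186, 201 and 189 CPM in control cells and 188, 188 and 211 CPM in siRNA_ANK cells, and the groups overlapped (log2 fold change 0.03 ± 0.06, adjusted p = 0.755). Foxs1, a factor described in pericytes and other perivascular cells, rose. Foxs1 (ENSRNOG00000008529, chromosome 3, 141397016 to 141398281, minus strand) measured 46.6, 57.1 and 36.7 CPM in control cells and 68.4, 76.7 and 78.5 CPM in siRNA_ANK cells. The controls ranged from 36.7 to 57.1 CPM, each below the siRNA_ANK libraries (1.59-fold, log2 fold change 0.67 ± 0.14, adjusted p = 0.00755). Leaving out siRNA_ANK replicate 3 ended the call (adjusted p = 0.0992).

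Foxq1 and Foxl1 fell. Foxq1, a factor studied in hair and epithelia (ENSRNOG00000062314, chromosome 17, 32912744 to 32915377, minus strand), measured 17.5, 18.2 and 22.5 CPM in control cells and 13.2, 13.7 and 13.7 CPM in siRNA_ANK cells. The siRNA_ANK libraries lay close together below all controls (1.43-fold lower, log2 fold change -0.52 ± 0.11, adjusted p = 0.00175). Foxl1, known from the mesenchyme beneath the gut epithelium (ENSRNOG00000047125, chromosome 19, 49197400 to 49198425, plus strand), was scarce, with 2.81, 2.76 and 3.06 CPM in control cells and 1.62, 1.56 and 2.03 CPM in siRNA_ANK cells. That is 48 to 50 counts in each control library and 26 to 32 in each siRNA_ANK library, and the groups did not overlap. It was 1.66-fold lower (log2 fold change -0.73 ± 0.23, adjusted p = 0.0218), and leaving out replicate 1 or 3 of the controls, or replicate 1 or 2 of siRNA_ANK, ended the call (adjusted p = 0.05004, 0.0643, 0.0677 and 0.0702). Foxf2, a mesenchymal factor, was 10.4, 8.18 and 8.37 CPM in control cells and 8.15, 6.95 and 6.96 CPM in siRNA_ANK cells, just apart from each other, and did not pass (log2 fold change -0.29 ± 0.14, adjusted p = 0.127). Its relative Foxf1 was left untested at 3 to 10 counts per library. Foxd2 was the scarcest member tested, with 9 to 42 counts in each library (log2 fold change 0.45 ± 0.44, adjusted p = 0.457).

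Foxc1, Foxf2 and Foxq1, and likewise Foxf1, Foxc2 and Foxl1, lie in a pair of chromosomal clusters. On chromosome 17, Foxc1, Foxf2 and Foxq1 lie in this order on the minus strand, with gaps of 202 and 70.6 kb, and their log2 fold changes were 0.69, -0.29 and -0.52. On chromosome 19, Foxf1, Foxc2 and Foxl1 lie on the plus strand with gaps of 27.9 and 8.66 kb. There the abundant Foxc2 had a log2 fold change of 0.03 and the scarce Foxl1, its next neighbour, one of -0.73. The differences between neighbours were not tested.

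In the FOXO subfamily, the family of insulin-regulated factors, Foxo1 rose. Foxo1 (ENSRNOG00000013397, chromosome 2, 136312168 to 136387790, plus strand) measured 16.03, 19.6 and 18.2 CPM in control cells and 31.8, 28.0 and 26.0 CPM in siRNA_ANK cells. Every siRNA_ANK library lay above every control, 1.59-fold on the means (log2 fold change 0.67 ± 0.10, adjusted p = 0.000104). Foxo3 (ENSRNOG00000000299, chromosome 20, 45672995 to 45764561, minus strand) measured 24.3, 24.9 and 27.6 CPM in control cells and 23.0, 23.6 and 23.4 CPM in siRNA_ANK cells. The siRNA_ANK values of Foxo3 were all slightly lower, without passing the test (log2 fold change -0.13 ± 0.08, adjusted p = 0.220). The log2 ratio of Foxo1 to Foxo3 in CPM, not scaled for gene length, was -0.60, -0.35 and -0.60 in the controls and 0.47, 0.25 and 0.16 in siRNA_ANK. Per kilobase of gene model, Foxo1 measured 6.26, 7.65 and 7.10 CPM in the controls, where Foxo3 measured 7.02, 7.18 and 7.96, so on this scale Foxo1 was below Foxo3 in replicates 1 and 3 of the controls and above it in replicate 2. Foxo6, another member of the subfamily, was left untested at 1 to 5 counts per library.

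In the FOXK subfamily, factors that bind forkhead sites as repressors of autophagy genes and as regulators of glucose use, Foxk2 fell. Foxk2 (ENSRNOG00000036663, chromosome 10, 106542566 to 106592563, plus strand) measured 215, 189 and 208 CPM in control cells and 139, 130 and 144 CPM in siRNA_ANK cells. All siRNA_ANK libraries lay below all controls (1.48-fold lower, log2 fold change -0.57 ± 0.06, adjusted p = 6.22e-06). Foxk1 was 23.9, 23.4 and 22.4 CPM in control cells and 29.3, 26.5 and 24.3 CPM in siRNA_ANK cells. Its siRNA_ANK values were all above the controls, but it did not pass (log2 fold change 0.20 ± 0.09, adjusted p = 0.0837). It passed without siRNA_ANK replicate 3 (adjusted p = 0.0171). The log2 ratio of Foxk1 to Foxk2 was -3.13 ± 0.11 in the controls and -2.37 ± 0.17 in siRNA_ANK (SD, n = 3).

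Among the FOXP and FOXN factors, Foxn3, Foxp1, Foxp2 and Foxn2 rose, and the calls of Foxp2 and Foxn2 depended on the libraries used. Foxp1, a broadly expressed repressor (ENSRNOG00000009184, chromosome 4, 131564756 to 132112258, minus strand), measured 161, 162 and 159 CPM in control cells and 189, 187 and 179 CPM in siRNA_ANK cells. Both groups were tight and stood apart by 1.15-fold (log2 fold change 0.20 ± 0.05, adjusted p = 0.00620). Foxp2, known for its role in speech and song circuits, measured 28.7, 26.5 and 28.4 CPM in control cells and 29.6, 32.3 and 36.7 CPM in siRNA_ANK cells. The groups were next to each other without overlap (1.18-fold, log2 fold change 0.24 ± 0.09, adjusted p = 0.0448). Leaving out any 1 control, or siRNA_ANK replicate 2 or 3, ended the call (adjusted p from 0.0722 to 0.155). Foxp4 overlapped between the groups, at 85.3 ± 4.89 and 84.2 ± 4.58 CPM (SD, n = 3; log2 fold change -0.02 ± 0.06, adjusted p = 0.853).

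Foxn3, a repressor also known as a checkpoint suppressor, rose (ENSRNOG00000004709, chromosome 6, 118466025 to 118842401, minus strand). It measured 21.6, 23.1 and 24.7 CPM in control cells and 37.4, 38.9 and 26.0 CPM in siRNA_ANK cells. Replicates 1 and 2 of siRNA_ANK were well above the controls and replicate 3 was only just above them (1.47-fold, log2 fold change 0.56 ± 0.14, adjusted p = 0.00784). Its relative Foxn2 measured 80.5, 80.2 and 80.3 CPM in control cells and 96.1, 96.9 and 83.1 CPM in siRNA_ANK cells, again with replicate 3 nearest to the controls. The rise of Foxn2 (1.15-fold, log2 fold change 0.20 ± 0.07, adjusted p = 0.0268) was lost without any 1 of the 3 controls or without siRNA_ANK replicate 1 or 2 (adjusted p from 0.0675 to 0.128). Foxj3 and Foxj2, broadly expressed activators, did not pass. Foxj3 was 103, 107 and 105 CPM in control cells and 116, 115 and 113 CPM in siRNA_ANK cells (log2 fold change 0.12 ± 0.05, adjusted p = 0.0720). It passed without siRNA_ANK replicate 3 (adjusted p = 0.0393). Foxj2 overlapped between the groups, at 76.6 ± 3.45 and 73.5 ± 6.25 CPM (SD, n = 3; log2 fold change -0.06 ± 0.07, adjusted p = 0.542).

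Members of a subfamily were then compared with each other within each library, as the log2 ratio of their CPM, in the 8 pairs with both genes tested. An exact permutation test of 3 against 3 libraries, two-sided, cannot go below p = 0.1, and no pair can pass. Every pair but Foxp1 to Foxp2 gave this smallest p in the exact test (0.114 after Benjamini-Hochberg adjustment over the 8 pairs). The same was not computed for other gene pairs, and the 3 FOXP pairs are built from the same 3 genes. The shifts of the log2 ratio were 0.80 for Foxo1 to Foxo3, 0.76 for Foxk1 to Foxk2, 0.66 for Foxc1 to Foxc2 and -0.34 for Foxn2 to Foxn3. They were 0.25 for Foxp2 to Foxp4, 0.22 for Foxp1 to Foxp4 and -0.19 for Foxj2 to Foxj3. Foxp1 to Foxp2 was the pair whose ratios overlapped (shift -0.03, exact p = 0.9).

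**Figure D3:**
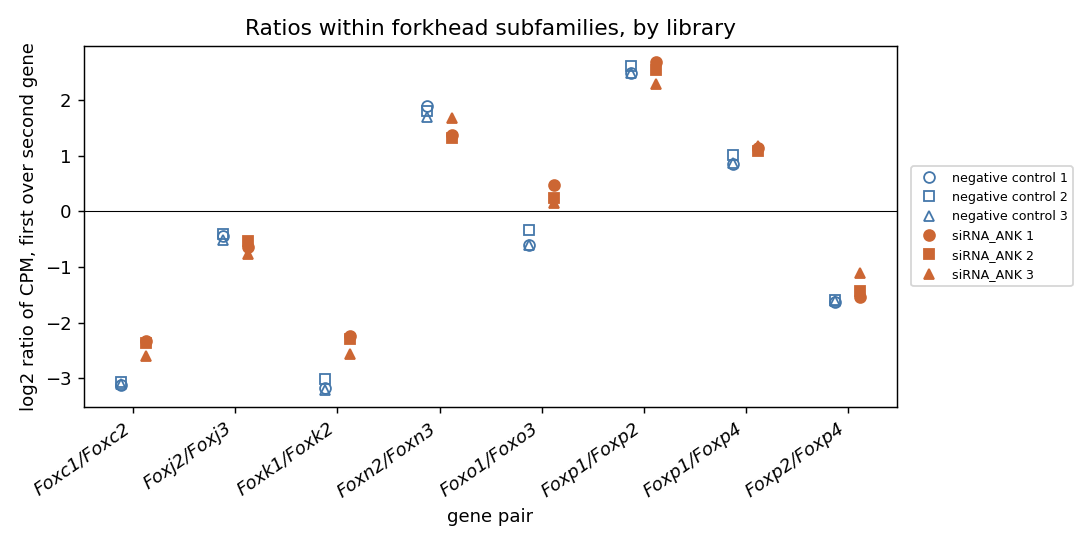
Log2 ratio of the CPM (not scaled for gene length) of 2 genes of a subfamily in each library, negative control open and siRNA_ANK filled. The ratio of Foxo1 to Foxo3 is below 0 in the 3 controls and above 0 in the 3 siRNA_ANK libraries, and the ratio of Foxp1 to Foxp2 overlaps between the groups.

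To compare genes with each other, CPM was divided by the length of the gene model in kilobases. On this scale Foxc2 was the highest forkhead gene in both groups, with 62.4 ± 2.55 in the controls and 63.6 ± 4.42 in siRNA_ANK (CPM per kilobase, SD, n = 3), 19.8% and 18.3% of the sum over all members. In the controls it was followed by Foxp1 (40.3 ± 0.386), Foxk2 (39.8 ± 2.62) and Foxs1 (36.98 ± 8.03), whose values overlapped from each to the next. Foxp4, Foxj3 and Foxn2 came next, at 22.8 ± 1.31, 18.7 ± 0.310 and 16.5 ± 0.0362, each apart from the next. Foxj2 and Foxc1 overlapped, and so did Foxo3 with Foxq1, Foxq1 with Foxo1, Foxo1 with Foxn3, and Foxf2 with Foxp2. In siRNA_ANK, Foxs1 stood second at 58.9 ± 4.25, its values overlapping those of Foxc2, and Foxk2 had gone from the third to the fourth place at 26.8 ± 1.34. Foxc1 moved from the ninth place to the sixth, at 21.7 ± 0.791, and Foxo1 from the thirteenth to the tenth, at 11.2 ± 1.14. These places go by the means. In siRNA_ANK the values of Foxc1 overlapped those of Foxp4, and the values of Foxo1 overlapped those of Foxj2 and Foxk1. The sum over the members was 315 ± 7.90 in the controls and 347 ± 1.29 CPM per kilobase in siRNA_ANK. Foxc1, Foxd2, Foxl1, Foxq1 and Foxs1 have gene models of 1 exon with a length divisible by 3. Whether these models hold the UTRs, which bears on a length-scaled level, was not tested.

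**Figure D4:**
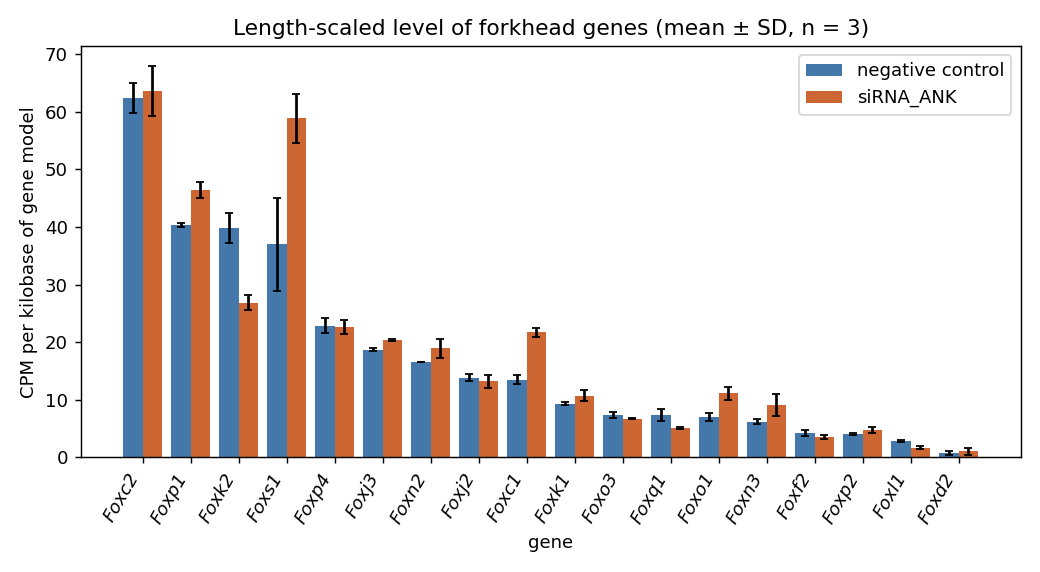
Mean level of the 18 forkhead genes tested in CPM per kilobase of gene model, with the SD over 3 libraries, in the order of the controls. Foxc2 is highest in both groups, and Foxs1 rises from the fourth to the second place in siRNA_ANK.

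Foxm1, the regulator of mitosis, was left untested at 0 to 3 counts per library. Its span (chromosome 4, 161638816 to 161650684, plus strand) lies wholly inside that of Tex52 (161638816 to 161660540) and mostly inside that of Nrip2 (161639356 to 161684070), both on the same strand. Rhno1, on the other strand, overlaps the start of Foxm1. The row of Tex52 had 0 to 5 counts in each library. The row of Nrip2 measured 45.3, 39.5 and 43.9 CPM in control cells and 26.3, 20.2 and 35.4 CPM in siRNA_ANK cells (log2 fold change -0.65, adjusted p = 0.0254). How reads in overlapping gene models were assigned is not stated, so transcripts of Foxm1 and of the genes around it cannot be told apart, and its low count gives no level of Foxm1 mRNA.

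Besides Foxf1, Foxo6 and Foxm1, a few counts were found for Foxa1, Foxa2, Foxa3, Foxd1, Foxe1, Foxe3, Foxh1 and Foxn1, with at most 6 in any library. Foxh1, a partner of SMAD proteins in early embryos, overlaps Kifc2 on the other strand. The members with no count in any library included Foxb1, Foxb2, Foxd3, Foxi1, Foxi2, Foxi3, Foxl2, Foxl3, Foxn4 and Foxr1. At these depths a count of 0 allows up to 3 counts, which is 0.169 to 0.190 CPM, covering counting error only. Many of the undetected members are known from other lineages, such as Foxl2 from the ovary and the Foxi genes from the ear and placodes.

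Promoter sequences of RefSeq (build GRCr8) were at hand for 25 of the 40 members, 11 of them tested, each covering 250 bases before to 50 after the start of a transcript. They are shown for 5 of the changed members, to set genes that rose beside genes that fell. Each is read 5′ to 3′ on the strand of the gene, and capitals mark the GC box GGGCGG, the CCAAT box CCAAT and the short forkhead motif TGTTTA on either strand. The windows are chr17:32844051-32844350 for Foxc1, chr2:138462724-138463023 for Foxo1, chr4:133353231-133353530 for Foxp1, chr10:107040683-107040982 for the first of 2 windows of Foxk2, and chr17:33124038-33124337 for Foxq1. Foxc1, Foxp1 and Foxq1 are on the minus strand, Foxo1 and Foxk2 on the plus strand.
Foxc1: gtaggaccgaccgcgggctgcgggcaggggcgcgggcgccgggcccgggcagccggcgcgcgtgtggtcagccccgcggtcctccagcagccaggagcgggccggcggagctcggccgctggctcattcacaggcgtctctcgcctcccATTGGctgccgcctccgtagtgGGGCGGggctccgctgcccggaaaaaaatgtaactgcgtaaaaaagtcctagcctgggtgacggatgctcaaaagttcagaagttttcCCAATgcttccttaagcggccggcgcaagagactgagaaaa
Foxo1: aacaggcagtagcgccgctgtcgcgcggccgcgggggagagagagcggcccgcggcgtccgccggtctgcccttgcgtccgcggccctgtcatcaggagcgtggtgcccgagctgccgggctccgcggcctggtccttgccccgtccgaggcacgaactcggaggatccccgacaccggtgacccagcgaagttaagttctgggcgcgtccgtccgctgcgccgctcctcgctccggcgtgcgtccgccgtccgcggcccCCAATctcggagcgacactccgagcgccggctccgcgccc
Foxp1: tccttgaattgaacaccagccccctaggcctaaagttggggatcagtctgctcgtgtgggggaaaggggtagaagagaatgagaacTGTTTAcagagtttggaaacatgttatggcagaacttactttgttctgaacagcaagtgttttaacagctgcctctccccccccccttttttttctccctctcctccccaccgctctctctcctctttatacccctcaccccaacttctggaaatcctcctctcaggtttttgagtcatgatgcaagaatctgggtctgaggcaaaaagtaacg
Foxk2: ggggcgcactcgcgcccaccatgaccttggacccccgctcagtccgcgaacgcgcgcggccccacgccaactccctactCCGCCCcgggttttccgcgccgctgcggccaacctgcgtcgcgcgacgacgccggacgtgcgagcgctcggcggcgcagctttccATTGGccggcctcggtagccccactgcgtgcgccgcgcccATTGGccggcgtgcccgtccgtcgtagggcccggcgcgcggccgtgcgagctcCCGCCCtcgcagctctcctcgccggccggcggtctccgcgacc
Foxq1: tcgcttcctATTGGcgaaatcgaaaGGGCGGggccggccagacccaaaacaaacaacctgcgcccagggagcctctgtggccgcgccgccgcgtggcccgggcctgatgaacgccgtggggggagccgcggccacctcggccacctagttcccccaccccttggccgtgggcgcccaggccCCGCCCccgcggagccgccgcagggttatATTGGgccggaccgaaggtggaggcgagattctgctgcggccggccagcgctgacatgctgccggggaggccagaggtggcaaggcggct
The windows of the tested members were rich in G and C, with a median of 73.5% against 51.7% over all 33469 windows of the table. Of the 12 windows of tested members, 10 held a GC box (33.1% of all windows) and 5 a CCAAT box (37.5%). The windows of Foxc1 and Foxq1 and the first window of Foxk2 each held 2 CCAAT boxes, and that of Foxo1 held 1. The second window of Foxk2 held none. The forkhead motif TGTTTAC was found in the window of Foxp1 and in none of the other 11 (3.78% of all windows), and TGTTTA, which it contains, likewise (13.7%). The window of Foxp1 also held the TATA box motif TATAAA (14.2% of all windows). The E box CACGTG (6.42%), the ER stress element (0.0657%) and the CArG box (1.64%) were in none of the 12. These are matches of letters on either strand and not binding sites.

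Genes that act on FOXO factors changed in both directions. Of 34 listed regulators, from the insulin receptor to kinases and 14-3-3 proteins, 34 were tested, 9 were higher and 7 lower, and 47.1% were called beside 40.1% of all genes tested (median log2 fold change 0.02). Pik3ip1, an inhibitor of PI3 kinase, rose 2.54-fold, from 6.19, 6.39 and 5.81 to 15.2, 18.7 and 12.8 CPM (log2 fold change 1.35 ± 0.15, adjusted p = 5.65e-06). Pik3r3, a regulatory subunit of PI3 kinase, rose 2.11-fold and the 14-3-3 gene Ywhah 1.37-fold. Akt2, a kinase that inactivates FOXO proteins, fell from 138, 143 and 151 to 113, 107 and 112 CPM (1.30-fold lower, adjusted p = 0.000115). Without negative control replicate 1 the number of regulators that were lower was 4.

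Genes described as FOXO targets were often called. Of 38 listed, 36 were matched and 31 tested, with 15 higher and 9 lower, that is 77.4% called beside 40.1% of all genes tested, and a median log2 fold change of 0.25. Insr and Irs2, both called, are also on the list of regulators and were counted in both lists. Klf2, a transcription factor of vascular quiescence, rose from 10.4, 12.7 and 10.8 to 22.7, 25.9 and 24.2 CPM (2.15-fold, log2 fold change 1.10 ± 0.10, adjusted p = 1.44e-06). Cdkn1a, the cell cycle inhibitor p21, rose 1.81-fold. Ccnd1, which encodes cyclin D1 and is described as repressed by FOXO factors, rose 1.67-fold. The list was not split into induced and repressed targets, so its median gives no direction of FOXO activity. Map1lc3b, of the autophagosome membrane, fell from 136, 124 and 137 to 87.4, 77.7 and 91.9 CPM (1.54-fold lower, log2 fold change -0.63 ± 0.07, adjusted p = 5.80e-06). The other called genes are named after their values were seen. The higher ones were Angpt2, Bbc3, Bcl2l11, Bcl6, Cdkn1b, Cited2, Fbxo32, Irs2, Klf4, Pdk4, Sesn1 and Sesn3, and the lower ones Bnip3, Cat, Ccnd2, Gabarapl1, Gadd45a, Insr, Pmaip1 and Prdx3. Genes of cell death stood on both sides, with Bbc3 and Bcl2l11 higher (log2 fold changes 0.35 and 0.50) and Pmaip1 lower (-0.63). Angpt2 rose 7.48-fold and Pdk4 3.06-fold, from 3 to 10 counts in each control library. With replicate 1 of the controls left out, 10 targets were higher.

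Of 29 genes listed as FOXM1 targets or as subunits of the complex that FOXM1 joins (Lin9, Lin37, Lin52 and Lin54), 27 were matched and tested, with 7 lower (25.9% beside 40.1% of all genes tested) and a median log2 fold change of -0.05. Ccnf, the F-box protein cyclin F, fell 1.85-fold, the centromeric histone gene Cenpa 1.55-fold, and the complex subunits Lin52 and Lin54, which are not targets, 1.38-fold and 1.30-fold. The other genes of the list that fell were Birc5, Cdk1 and Mybl2, named after their values were seen. By edgeR 0 were higher, also by DESeq2 and limma-voom, and 1 at an unadjusted p under 0.05. In siRNA_ANK libraries the list summed to 296 to 312 CPM. It summed to 310 and 297 CPM in negative control replicates 1 and 3, and to 384 CPM in replicate 2. Without that library the number higher was 3 instead of 0, and 4 were lower. Without siRNA_ANK replicate 1 the number higher was 1, and without siRNA_ANK replicate 2 the number lower was 4.

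Of 23 genes of the hedgehog pathway, which induces FOXF and FOXL1 genes in mesenchyme, 22 were matched and 15 tested, with 5 higher and 2 lower (46.7% called beside 40.1% of all genes tested, median log2 fold change 0.19). Gli2, a transcription factor of the pathway, rose 2.62-fold from 1.74, 2.07 and 2.25 to 5.52, 5.69 and 4.69 CPM (log2 fold change 1.39 ± 0.20, adjusted p = 6.64e-05). Ptch1, a receptor, rose 1.73-fold, the coreceptor gene Boc 1.42-fold, and Evc, of the primary cilium, 1.40-fold. The other called genes of this list are named after their values were seen. Cdon was higher, and Smo and Gli3 were lower (log2 fold changes -0.30 and -0.45, edgeR adjusted p = 0.0209 and 0.00518). Shh and Hhip had no counts, and Gli1 had too few to be tested. Leaving out replicate 1 or 3 of the controls, or replicate 1 or 2 of siRNA_ANK, left 1 lower. Of 25 listed nuclear partners of FOXP and FOXK factors, 23 were matched and 21 tested, with 6 higher and 3 lower (42.9% called beside 40.1% of all genes tested, median log2 fold change 0.00). Nfatc2, which binds DNA with FOXP factors in T cells, was scarce in the controls (3 to 10 counts) and rose 4.59-fold from 0.563, 0.576 and 0.187 to 2.52, 1.80 and 1.77 CPM (adjusted p = 0.000423). Gatad2b and Mta1, both of the NuRD complex, rose 1.42-fold and 1.21-fold, and Ogt, the O-GlcNAc transferase, 1.40-fold. The other called partners are named after their values were seen. Hdac1 and Mta3 were higher, and Nfatc1, Ctbp2 and the NuRD gene Mbd3 were lower. Nfatc1 fell from 34.5, 31.8 and 36.4 to 22.7, 17.1 and 27.2 CPM (adjusted p = 0.00502), and Mbd3 fell 1.14-fold (adjusted p = 0.0149). Leaving out replicate 1 or 3 of the controls, or replicate 1 of siRNA_ANK, left 1 partner lower.

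**Figure D5:**
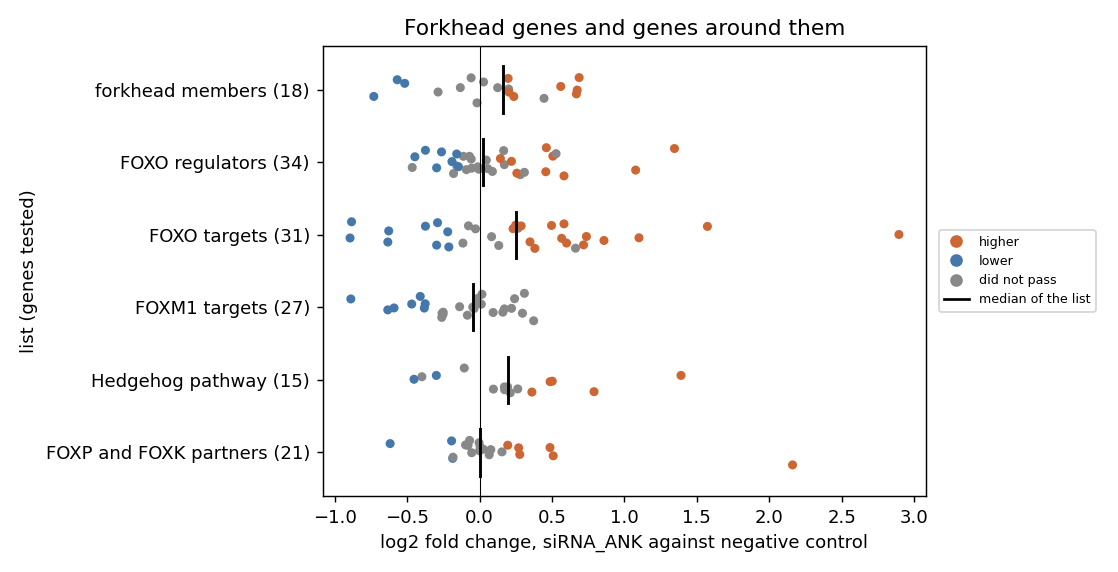
Log2 fold change of each tested gene in the forkhead family and in the 5 lists around it (orange higher, blue lower, grey did not pass), with the median of each list as a black line. FOXO targets spread widely in both directions around a median of 0.25, while the list of FOXM1 targets and complex subunits holds 7 lower genes and none higher.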

How the data were processed

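The deposited files hold whole-number counts per gene, not normalized, in 1 file per library; per the submitters' processing notes they were made with featureCounts 1.5.0-p3 and DESeq2 on mRatBN7.2. The sources used here do not give the aligner, the strand setting or the treatment of reads in overlapping genes, so overlapping genes share an uncertain count. The 385 loci without an annotated gene name stayed in the table. Genes passing filterByExpr (minimum count 10, minimum total 15) were analysed in edgeR 4.0.16 (R 4.3.3), libraries were scaled by TMM (factors 0.979 to 1.02), and groups were compared by the robust quasi-likelihood test, two-sided, without covariates. The fit covered the whole table. SE is the size of the log2 fold change over the square root of F. Length-scaled levels use the deposited gene length. A symbol on several rows was taken from the longest gene model (Ep300).

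The members, gene lists and motifs were chosen with earlier results of these data known. Every tested member is named with values, an item among the others is not reported here, and per list up to 4 called genes by smallest adjusted p. No list was tested as a set. The lists share some genes: Insr and Irs2 stand on both FOXO lists, and Skp2 on those of FOXO regulators and FOXM1 targets. Alternatives were DESeq2 1.42.0, limma-voom (limma 3.58.1), other scalings and filters, a replicate block and leaving out libraries. Replicates of a group differed beyond sampling noise (chi-square per degree of freedom 2.83 to 12.3). The steps were tested on simulated counts drawn with the same dispersion for every gene, so that check gives no error rate for the calls made here.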

Additional observations from a re-analysis of the deposited data

How the results depend on the processing

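In all, 14 alternatives were run. Foxc1, Foxo1, Foxn3, Foxp1, Foxk2 and Foxq1 kept their direction and call in all 14. Foxn2 and Foxp2 lost theirs with DESeq2 (adjusted p = 0.0540 and 0.0865), and Foxp2 also with limma-voom (adjusted p = 0.0556) and without negative control replicate 2 and siRNA_ANK replicate 3 together (adjusted p = 0.314). With both of these left out, Foxj3 and Foxk1 passed (adjusted p = 0.0225 and 0.0201), 7 genes of the FOXM1 list and 9 hedgehog genes were higher, and 8 forkhead genes were higher and 3 lower. Signs turned only for members that did not pass: leaving out 1 library at a time, Foxc2 ran from -0.033 to 0.059, Foxd2 from -0.087 to 0.77, Foxj2 from -0.12 to 0.0035 and Foxp4 from -0.065 to 0.024 (log2 fold changes), and without both libraries Foxj2 was 0.040. With no filter beyond 1 count, 29 members were tested and the same counts of 7 and 3 were called. Leaving out 1 library at a time gave 5 to 7 forkhead genes higher and 2 to 3 lower, 4 to 8 FOXO regulators lower, 0 to 3 genes of the FOXM1 list higher and 4 to 6 lower, 1 to 2 hedgehog genes lower, and 1 to 3 partners lower. The cause of these shifts was not tested. The replicate numbers showed no clear pairing of the samples (correlation of deviations -0.03, 0.07 and 0.05 for replicates 1, 2 and 3). With 3 libraries in each group, this check cannot exclude pairing. With the replicate number as a block, 7 forkhead genes were higher and 3 lower, of 2579 and 2631 genes in all. The difference detectable in members with few counts was not computed.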

Other observations

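Rows next to forkhead genes were also read, within 100 kb of the tested members. There were 70 pairs of a member and a neighbouring row, 37 with a tested neighbour, of which 5 were higher and 5 lower (Foxl1 and Foxq1, forkhead genes themselves, among the lower), beside the 40.1% called over all genes tested. Rps27a-ps1 lies inside Foxj3 on the other strand, at 399, 197 and 157 CPM in control and 237, 257 and 476 CPM in siRNA_ANK cells. AABR07035428.3 overlaps the end of Foxk1 on the other strand. Inside Foxp1 a U3 row had at most 1 count, and inside Foxq1 a pseudogene row had none. The bearing of these overlaps on the members' counts was not tested. Long non-coding rows lie just after the end of Foxn3, Foxo1, Foxo3 and Foxp1, between 418 and 1580 bases away, and another lies 860 bases before the start of Foxc1. The row after Foxn3 (ENSRNOG00000063339, same strand) was 15.5, 15.5 and 13.9 CPM in control cells and 27.6, 25.6 and 23.3 CPM in siRNA_ANK cells. Its log2 fold change was 0.77 (edgeR adjusted p = 2.03e-05), beside 0.56 for Foxn3, and here siRNA_ANK replicate 3 lay well above the controls. The row after Foxo1 (ENSRNOG00000070241, same strand) was 7.82, 7.02 and 6.43 CPM in control cells and 10.9, 12.1 and 13.2 CPM in siRNA_ANK cells (log2 fold change 0.76, adjusted p = 0.000315), beside 0.67 for Foxo1. The row after Foxp1 (ENSRNOG00000068110, other strand) rose from 39.3 ± 2.06 to 53.6 ± 2.84 CPM (SD, n = 3; a log2 difference of 0.45, adjusted p = 0.000166), beside 0.20 for Foxp1. The row after Foxo3 (ENSRNOG00000069059, other strand) did not pass, like Foxo3 itself (log2 fold change 0.17, adjusted p = 0.149). The row before Foxc1 (ENSRNOG00000064216, same strand) had 4 to 18 counts in each library and did not pass, with a sign opposite to that of Foxc1 (log2 fold change -0.62, adjusted p = 0.268). Whether these rows are separate transcripts or further parts of the forkhead transcripts cannot be told apart from the counts.

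Among protein-coding neighbours, Tfeb, a regulator of lysosome and autophagy genes that lies 84.0 kb after Foxp4, rose from 10.5 ± 1.28 to 15.7 ± 1.64 CPM (a log2 difference of 0.57, adjusted p = 0.00176), while Foxp4 did not pass. Ppp1r21, after Foxn2, rose from 22.8 ± 2.02 to 28.9 ± 3.11 CPM (adjusted p = 0.0119). Gmds, an enzyme of GDP-fucose synthesis that lies 11.2 kb after Foxc1, fell from 37.9 ± 1.71 to 30.8 ± 2.99 CPM (a log2 difference of -0.30, adjusted p = 0.00954), opposite to Foxc1. AABR07035428.2, after Foxk1, fell from 38.5 ± 1.21 to 29.0 ± 1.22 CPM (a log2 difference of -0.41, adjusted p = 0.000418), while Foxk1 did not pass. Cybc1, before Foxk2, fell from 54.4 ± 2.29 to 47.3 ± 2.72 CPM (adjusted p = 0.0299).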
